A study of Mus musculus with 35 samples.

Results

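The bone morphogenetic protein (BMP) genes described here are 9: the ligands Bmp2, Bmp4 and Bmp6, the extracellular antagonist Grem1, the receptors Bmpr1a and Bmpr2, and the targets Id1, Id2 and Id3. They were found by the gene name that the scanner files give each probe, which returned 15 of 41174 different gene probes. All 9 genes were among the 18671 genes tested, since each had a probe well above background in the aorta channel on at least 3 of 35 arrays. Every mouse was a male ApoE-/- animal, which lacks apolipoprotein E, with a subcutaneous minipump placed at 12 to 14 weeks of age. The groups were dissected suprarenal aortas after 7 days of angiotensin II (Ang II, n = 3), non-dissected aneurysms after 7 days of Ang II (n = 4), aortas labelled as aneurysms after 14 days (n = 5) and 28 days (n = 6) of Ang II, and aortas of mice given saline vehicle for 7 days (n = 6), 14 days (n = 6) and 28 days (n = 5). Ang II was delivered at 1000 ng/kg/min. Each array held RNA of 1 whole, saline-perfused suprarenal aorta in the Cy5 channel and a commercial universal mouse RNA in the Cy3 channel, with no dye swap. Values are log2 ratios of aorta over that common RNA, and a difference of 1 between aortas is a ratio of 2. Since the dyes were not swapped, only differences between aortas are read, and the number of arrays limits their precision.

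BMPs are secreted dimers of the TGF-beta superfamily. They assemble type I receptors such as Bmpr1a with type II receptors such as Bmpr2, and the complex phosphorylates Smad1, Smad5 and Smad9, which enter the nucleus with Smad4. The Id genes are classical early targets of these Smads and encode helix-loop-helix proteins without a DNA-binding region, which hold E proteins away from DNA. Endothelial and smooth muscle cells both use the pathway, and loss-of-function variants of human BMPR2 are known from hereditary pulmonary arterial hypertension.

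The 60-base probes are shown for 4 genes, since these letters are what each log2 ratio measures. Positions are those of the scanner files in build mm8. The Bmp4 probe lies at chr14:45306004-45306063 on the minus strand, and the second Bmp6 probe is split over chr13:38477222-38492365 on the plus strand. The second Id2 probe is split over chr12:25684398-25684745 on the minus strand. The single Id3 probe is also split, over chr4:135416236-135416410 on the plus strand.
Bmp4: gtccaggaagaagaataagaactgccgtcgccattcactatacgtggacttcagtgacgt
Bmp6: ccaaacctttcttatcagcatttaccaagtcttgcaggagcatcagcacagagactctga
Id2: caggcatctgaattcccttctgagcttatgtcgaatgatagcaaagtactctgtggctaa
Id3: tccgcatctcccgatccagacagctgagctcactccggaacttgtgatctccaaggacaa

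The 250 bases before the RefSeq start of Id2 and Id3 are shown because both are textbook BMP targets. They are RefSeq sequence of build GRCm38.p6, at chr12:25096093-25096342 on the minus strand for Id2 and chr4:136143572-136143821 on the plus strand for Id3. Capitals mark 2 motifs searched on both strands, GGCGCC, and CAGAC, which reads as GTCTG on the other strand; these are short words of the kind Smads bind.
Id2: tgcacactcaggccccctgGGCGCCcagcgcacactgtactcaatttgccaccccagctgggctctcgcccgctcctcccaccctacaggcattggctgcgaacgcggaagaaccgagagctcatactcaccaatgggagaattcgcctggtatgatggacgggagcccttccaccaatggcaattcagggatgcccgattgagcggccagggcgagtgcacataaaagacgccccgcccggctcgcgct
Id3: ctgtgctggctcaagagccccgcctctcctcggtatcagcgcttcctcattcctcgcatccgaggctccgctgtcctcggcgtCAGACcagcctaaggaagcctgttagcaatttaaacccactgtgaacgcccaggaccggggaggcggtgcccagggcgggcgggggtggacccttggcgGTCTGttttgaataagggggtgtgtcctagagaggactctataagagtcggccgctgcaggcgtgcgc
GGCGCC occurred in 4 of the 7 members matched in the promoter table and in 9.59% of all 32851 promoters of that length. CAGAC or GTCTG occurred in 3 of the 7 members and in 42.2% of all promoters. The letters describe the windows and say nothing of binding in these aortas.

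Between 45% and 84.8% of gene spots per array were well above background in the aorta channel, with 47.2% to 50.5% on the 3 dissected arrays. Saline 28-day replicates 2 and 4 and saline 7-day replicate 5 stood apart, with a median absolute deviation of log2 ratios over genes of 0.06 to 0.14 against 0.22 to 0.58 on the other arrays. Ang II 14-day replicate 4 had the highest share of spots above background. Results are given with these 4 arrays, and without them where that changed a call. Their removal was chosen after the data were seen, so calls gained by it are no added support. The 3 dissected arrays were all scanned on the second of 2 scan days, while 3 of the 4 non-dissected 7-day Ang II arrays were scanned on the first. Smooth muscle and endothelial markers were all among the tested genes (10 of 10 each), with mean log2 ratios per array of 1.42 to 4.49 and 1.52 to 4.63.

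Among the 9 genes, Bmp6 and Bmpr2 had the largest differences, and both were in dissected aortas. In dissected Ang II aortas Bmp6 fell 5.19-fold and Bmpr2 fell 3.24-fold against saline at 7 days, and Bmpr1a, Id1 and Bmp2 were also lower. In non-dissected Ang II aortas at 7 days, Id3 rose 1.73-fold and Bmpr2 fell 1.71-fold. No member passed the test at 14 or 28 days taken alone, and averaged over the 3 times Bmpr2 and Id1 were lower with Ang II. The Bmpr2 values are those of its brightest probe. Another Bmpr2 probe, designed on the RefSeq transcript, passed none of these tests, with log2 changes of -0.19 in dissected and 0.09 in non-dissected aortas at 7 days. A change was called at a Benjamini-Hochberg adjusted p under 0.05 in a limma model of all 7 groups, adjusted over all 18671 genes.

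Counted over all 9 members, 2 were called at 7 days in non-dissected Ang II aortas (1 higher, 1 lower), where 27.2% of all genes were called, 14.5% higher and 12.7% lower. At 14 days 0 of 9 were called against a background of 2.34% (1.12% higher, 1.22% lower), and at 28 days 0 of 9 against 0.911% (0.846% higher, 0.0643% lower), by limma. For the mean of the 3 times, 2 of 9 were called, both lower, and 27.2% of all genes were called, 15.7% higher and 11.5% lower. In dissected aortas against saline 5 of 9 were called, all lower, where 36.5% of all genes were called, 18.9% higher and 17.6% lower. In dissected against non-dissected aortas 2 of 9 were called, both lower, where 8% of all genes were called, 3.1% higher and 4.9% lower. The 9 genes were chosen with earlier results of these data known, so these counts are no test of the set. The lowest adjusted p at 14 days was 0.11, for Bmp2 (0.00636 before adjustment, limma). At 28 days Bmpr1a, Id1 and Bmpr2 had 0.0158, 0.0215 and 0.0224 before adjustment (limma), and the other members were above 0.05 at both times.

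**Figure D1:**
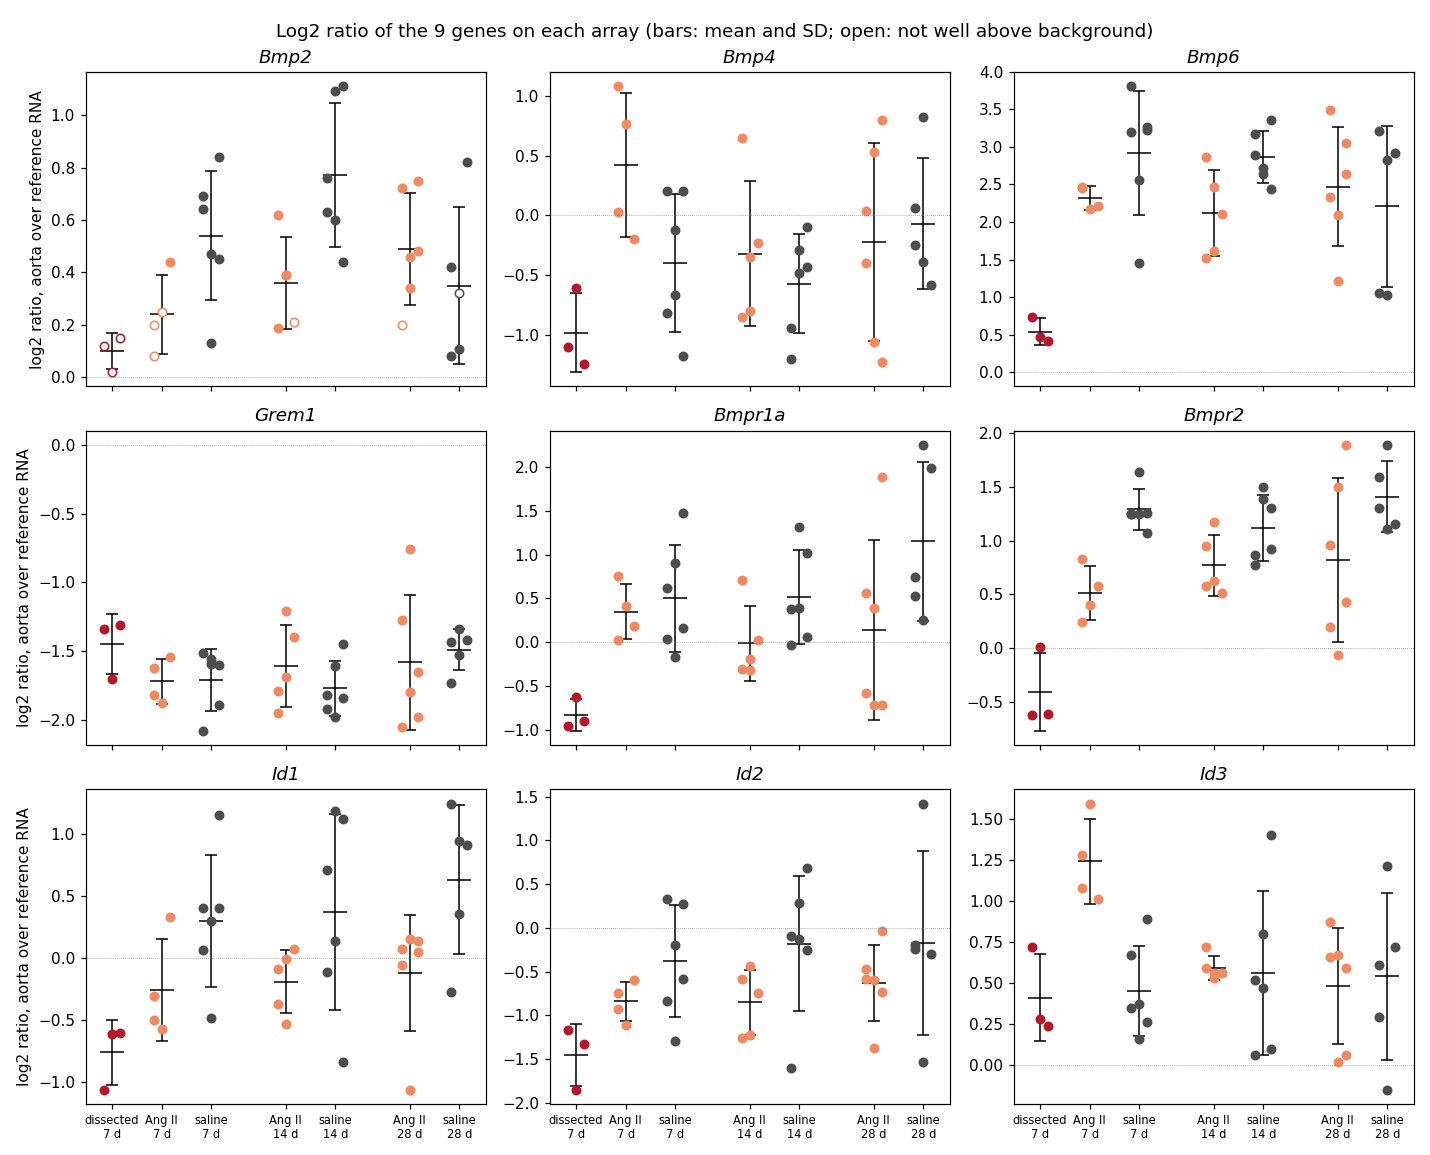
Log2 ratio of aorta over common reference RNA (vertical axes, 1 panel per gene) for each of 35 arrays in 7 groups, with black bars for the group mean and SD and open circles where the probe was not well above background. The 3 dissected aortas lie between 0.41 and 0.74 for Bmp6 and between -0.62 and 0.01 for Bmpr2, below every saline aorta at 7 days.

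Bmp6, an endothelial ligand best known for inducing hepcidin in the liver, had log2 ratios of 0.74, 0.47 and 0.41 in the 3 dissected aortas. In non-dissected Ang II aortas at 7 days they were 2.46, 2.17, 2.21 and 2.45. The 6 saline aortas at 7 days ranged from 1.45 to 3.81 with a median of 3.21. All dissected aortas were lower than all saline aortas and all non-dissected ones, and the lowest saline value came from replicate 5, one of the arrays that stood apart. The log2 change was -2.38 (SE 0.46, adjusted p = 0.000169, limma) in dissected aortas against saline and -1.78 (SE 0.50, adjusted p = 0.0245, limma) against non-dissected aortas.

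Within the second scan day alone, the Bmp6 change against saline was -2.09 (adjusted p = 0.0206, limma with 3 dissected and 3 saline arrays), so the call held in the day that carried all dissected arrays. Against the non-dissected aorta of that day the change was -1.67 (adjusted p = 0.475, limma), and with scan day as a block it was -1.80 with an adjusted p of 0.0504 from limma. The call against saline was kept in all 27 alternatives, and that against non-dissected aortas in 16 of 25. Such counts include fits with 1 array left out. They also include Aquantile normalization, which leaves log ratios as they are, so they are not counts of independent checks. The second Bmp6 probe, shown above, was not well above background on any of the 3 dissected or 4 non-dissected 7-day Ang II arrays, against 5 of 6 saline arrays. It put Bmp6 at least 1.38-fold lower in dissected than in saline aortas, a bound that carries no test. Its fitted change, with dissected values at background, had an adjusted p of 0.00765 (limma over probes).

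Outside the dissected group, Ang II aortas had mean Bmp6 log2 ratios of 2.32 ± 0.15 (SD, n = 4) at 7 days. They had 2.12 ± 0.57 (SD, n = 5) at 14 days and 2.47 ± 0.79 (SD, n = 6) at 28 days. The saline means were 2.92 ± 0.82 (SD, n = 6) at 7 days, 2.87 ± 0.34 (SD, n = 6) at 14 days and 2.21 ± 1.07 (SD, n = 5) at 28 days. The groups overlapped at every time and none of the 3 changes passed the test, with adjusted p of 0.312 at 7 days, 0.312 at 14 days and 0.825 at 28 days (limma). The 2 lowest saline values at 28 days, 1.03 and 1.06, were those of the arrays that stood apart. Without the 4 arrays, the 7-day change was -0.89 (adjusted p = 0.0359, limma) and the mean over the 3 times was -0.67 (adjusted p = 0.0086, limma). That removal was chosen after the data were seen. It takes out the lowest saline values at 7 and 28 days, which raises the saline means at those times.

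Of 10 endothelial markers 0 rose and 1 fell in dissected aortas against saline, with a mean log2 ratio per array of 4.09 to 4.41 in dissected and 2.29 to 4.47 in saline aortas. Smooth muscle markers fell for 2 of 10, with 1.49 to 2.26 in dissected and 1.55 to 3.72 in saline aortas. Monocyte and macrophage markers rose for 8 of 8, with 3.08 to 3.97 in dissected and 0.26 to 1.48 in saline aortas. The part of these cells in the members' values was not tested, and in whole aortas fewer cells of a type and less RNA per cell cannot be told apart. With brown adipocyte, chromaffin and kidney tubule scores as covariates, the Bmp6 change in dissected aortas was -2.29 (adjusted p = 0.00019, limma) against saline and -1.73 (adjusted p = 0.0913, limma) against non-dissected aortas, where the call was lost. With scale normalization between arrays the change against non-dissected aortas also did not pass the threshold (adjusted p = 0.273, limma).

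Bmp4, a ligand made by endothelium exposed to disturbed flow, had log2 ratios of -1.10, -0.61 and -1.24 in dissected aortas. The 4 non-dissected Ang II aortas at 7 days had 1.08, 0.76, -0.20 and 0.03, and the saline aortas at 7 days ranged from -1.18 to 0.20 with a median of -0.40. Every dissected aorta was below every non-dissected one, while the saline aortas overlapped both. Bmp4 fell in dissected against non-dissected aortas by 1.40 on the log2 scale (SE 0.44, adjusted p = 0.0434, limma), a call kept in 12 of 24 alternatives. With scan day as a block the value was -1.16 (adjusted p = 0.147, limma), and within the second scan day it was -0.79 (adjusted p = 0.635, limma with 1 non-dissected array). It was also lost without non-dissected Ang II replicate 1 or 2, without any 1 of the dissected aortas, and without the 4 arrays that stood apart (adjusted p = 0.0534, limma). With the neighbouring tissue scores as covariates the value was -0.88 (adjusted p = 0.293, limma), and with scale normalization it was -1.22 (adjusted p = 0.384, limma). In the same comparison 2 of 8 fibroblast markers were lower, with a median change of -1.16 over the list and a mean log2 ratio per array of 1.90 to 2.64 in dissected and 3.24 to 3.77 in non-dissected aortas. Of 8 chromaffin and sympathetic neuron markers 1 was higher, with a median change of 2.38. The part of fibroblasts in the Bmp4 value was not tested. Against saline, Bmp4 had a change of 0.82 (SE 0.37, adjusted p = 0.0981, limma) in non-dissected and -0.59 (SE 0.41, adjusted p = 0.27, limma) in dissected aortas. At 14 and 28 days the changes were 0.26 and -0.15, with standard errors of 0.35 each.

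Bmp2, a ligand tied to vascular calcification, was the dimmest member. Its probe was well above background on 0 of 3 dissected arrays, 1 of 4 non-dissected 7-day Ang II arrays and 6 of 6 saline 7-day arrays. The log2 ratios were 0.12, 0.02 and 0.15 in dissected aortas, and saline aortas ranged from 0.13 to 0.84 with a median of 0.55. Only the saline value of 0.13, from replicate 5, reached into the dissected range. Bmp2 was at least 1.27-fold lower in dissected than in saline aortas, a bound that carries no test. The fitted change, with dissected values at background, was -0.44 (adjusted p = 0.0336, limma), a call kept in 17 of 26 alternatives. The loss came without any 1 of the dissected arrays (adjusted p = 0.0629 to 0.108, limma) and without saline replicate 1, 4 or 6. It was also lost within the second scan day (adjusted p = 0.0848, limma), with only the compared groups in the fit (adjusted p = 0.0526, limma) and with median centring in place of loess, where the value was -0.08 (adjusted p = 0.767, limma) and the median of all genes was -0.36. The fitted values were -2.78 in the deposited series table and -2.86 from the scanner software's processed signals, so its size differed between these treatments of a dim signal. Among the Ang II groups other than the dissected one, the lowest adjusted p was at 14 days. The change there was -0.41 (SE 0.14, adjusted p = 0.11, limma). Without the 4 arrays that stood apart, the change was -0.38 (adjusted p = 0.0496, limma) at 7 days and -0.26 (adjusted p = 0.0232, limma) for the mean of the 3 times. Bmp2 and Bmp4 were each printed at 10 spots per array, whose log2 ratios had a median SD of 0.46 for Bmp2 and 0.10 for Bmp4 within an array.

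Grem1, gremlin, binds BMP2, BMP4 and BMP7 and keeps them from their receptors. Its log2 ratio was below 0 in every aorta, between -2.08 and -0.76, and group means lay between -1.77 and -1.45. The changes with Ang II were -0.01 (SE 0.18) at 7 days, 0.16 (SE 0.17) at 14 days and -0.09 (SE 0.17) at 28 days. In dissected aortas the change was 0.26 (SE 0.20, adjusted p = 0.338, limma) against saline. The groups overlapped in each of these comparisons. The sign of the Grem1 changes differed between scalings at all 3 times and in dissected aortas.

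Bmpr2, the type II receptor that binds ligand and activates the type I chain, had log2 ratios of -0.62, 0.01 and -0.61 in dissected aortas. Non-dissected Ang II aortas at 7 days had 0.83, 0.40, 0.58 and 0.24, and the saline aortas at 7 days ranged from 1.07 to 1.64 with a median of 1.25. The groups formed 3 ranges with no overlap, dissected lowest and saline highest. Against saline Bmpr2 fell by 1.70 (SE 0.28, adjusted p = 2.57e-05, limma) in dissected aortas and by 0.78 (SE 0.26, adjusted p = 0.0267, limma) in non-dissected ones. The difference between dissected and non-dissected aortas was -0.92 (SE 0.31, adjusted p = 0.0606, limma).

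The fall of Bmpr2 in dissected aortas kept its call in 26 of 28 alternatives, and within the second scan day it was -1.60 (adjusted p = 0.000232, limma). In non-dissected aortas the 7-day call was kept in 20 of 30 alternatives. It was lost without Ang II replicate 2 (adjusted p = 0.0744, limma), without Ang II replicate 4 (adjusted p = 0.081, limma) and without saline replicate 2 (adjusted p = 0.0578, limma). With the neighbouring tissue scores as covariates it was -0.90 (adjusted p = 0.0597, limma), with the mean of all 3 probes -0.41 (adjusted p = 0.0764, limma), and with scale normalization or median centring it did not pass the threshold (adjusted p = 0.473 and 0.0884, limma). Within the first scan day the change was -0.90 (adjusted p = 0.0276, limma) and within the second -0.61 (adjusted p = 0.375, limma with 1 Ang II array).

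The 3 Bmpr2 probes did not give the same values, as the plot of changes by probe shows. The probe used above, at chr1:59821964-59822023, was the brightest, with a mean log2 signal of 11.92, and was designed on a cDNA clone. A probe 2337 bases upstream at chr1:59819627-59819686, also from a cDNA clone, was well above background on 0 of 3 dissected and 6 of 6 saline arrays. It put Bmpr2 at least 2.73-fold lower in dissected aortas, a bound that carries no test. Its fitted change, with dissected values at background, had an adjusted p of 5.45e-05 (limma over probes). This probe had -0.55 (adjusted p = 0.114, limma over probes) in non-dissected 7-day Ang II aortas. The probe designed on the RefSeq transcript, 6986 bases upstream at chr1:59814978-59815037, was well above background on all 35 arrays with a mean log2 signal of 8.29. Its changes were -0.19 (SE 0.14, adjusted p = 0.292, limma over probes) in dissected and 0.09 (SE 0.12, adjusted p = 0.652, limma over probes) in non-dissected aortas. The falls of Bmpr2 given here therefore rest on the downstream probes, and no transcript model of build mm8 was used to place the 3 probes in exons.

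**Figure D2:**
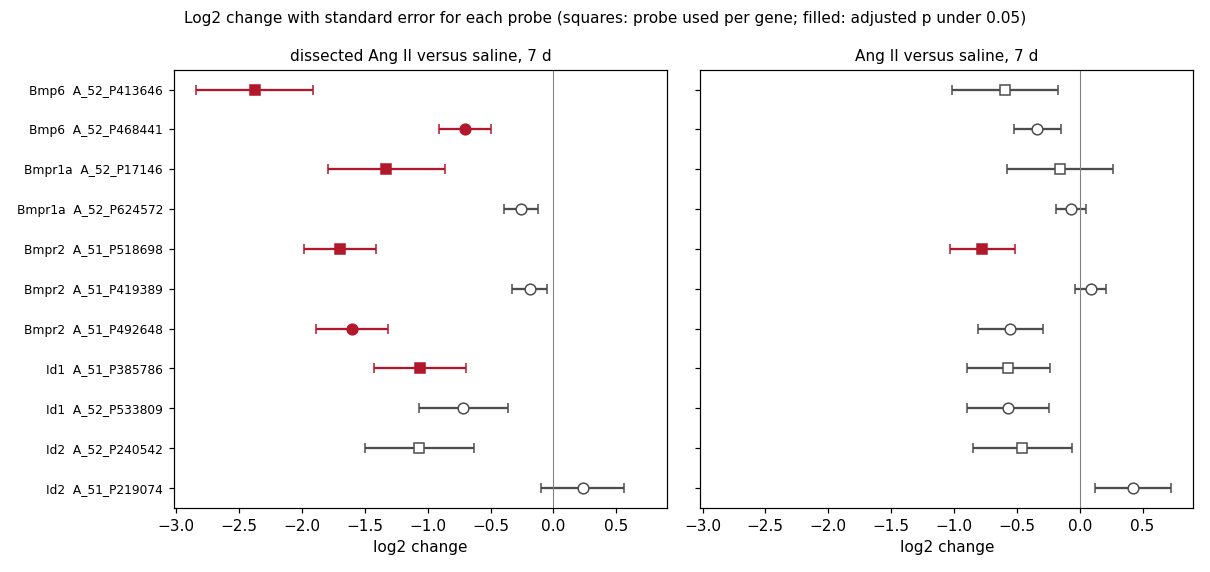
Log2 change with its standard error (horizontal axis) for each probe of the 5 genes with several probes, in dissected Ang II against saline (left) and non-dissected Ang II against saline (right) at 7 days. Squares are the probes used per gene and filled symbols have an adjusted p under 0.05; for Bmpr2 in dissected aortas the brightest probe lies at -1.70 and the RefSeq-based one at -0.19, and for Id2 the probes lie on opposite sides of 0. The fitted points of the middle Bmpr2 probe and the second Bmp6 and Bmpr1a probes stand for bounds in dissected aortas, where they were not well above background.

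At 14 days Bmpr2 averaged 0.77 ± 0.28 in Ang II (SD, n = 5) and 1.12 ± 0.31 in saline aortas (SD, n = 6), and at 28 days 0.82 ± 0.77 in Ang II (SD, n = 6) and 1.41 ± 0.33 in saline aortas (SD, n = 5). Neither change passed the test (adjusted p = 0.441 at 14 days and 0.246 at 28 days, limma), and the groups overlapped. The 6 Ang II aortas at 28 days were widely spread, between -0.06 and 1.89. Averaged over the 3 times, Bmpr2 fell by 0.57 (SE 0.14, adjusted p = 0.00348, limma). Within the first scan day that mean change was -0.37 (adjusted p = 0.124, limma) and within the second -0.76 (adjusted p = 0.0114, limma). The RefSeq-based probe had a mean change of -0.16 (adjusted p = 0.0763, limma over probes).

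Bmpr1a, the type I receptor also called ALK3, had log2 ratios of -0.96, -0.62 and -0.90 in dissected aortas. In non-dissected 7-day Ang II aortas they were 0.76, 0.41, 0.19 and 0.03, and in saline aortas they ranged from -0.17 to 1.47 with a median of 0.39. The dissected aortas were below all of both other groups, and those groups overlapped. Bmpr1a was lower in dissected than in saline aortas by a log2 change of -1.33 (SE 0.46, adjusted p = 0.0242, limma). With scan day as a block this was -1.10 (adjusted p = 0.0601, limma) and within the second day -0.83 (adjusted p = 0.0963, limma). The call was also lost without dissected replicate 1 or 3 and without saline replicate 3 (adjusted p = 0.0555 to 0.0852, limma). The second Bmpr1a probe was dim, well above background on 19 of 35 arrays and on 0 of 3 dissected ones. It bounds Bmpr1a only as at least 1.06-fold lower in dissected aortas. Its fitted change did not pass the test (adjusted p = 0.134, limma over probes).

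In the Ang II groups other than the dissected one, the Bmpr1a change was -0.16 (SE 0.42) at 7 days and -0.54 (SE 0.40) at 14 days. At 28 days it was -1.01 (SE 0.40), and none of these changes passed the test (adjusted p = 0.216 at 28 days, limma). The 28-day values were spread over -0.72 to 1.89 in Ang II and 0.25 to 2.25 in saline aortas. They overlapped, with 3 Ang II aortas below every saline aorta. Averaged over the times the change was -0.57 (adjusted p = 0.069, limma), and without the 4 arrays that stood apart it was -0.74 (adjusted p = 0.0329, limma).

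**Figure D3:**
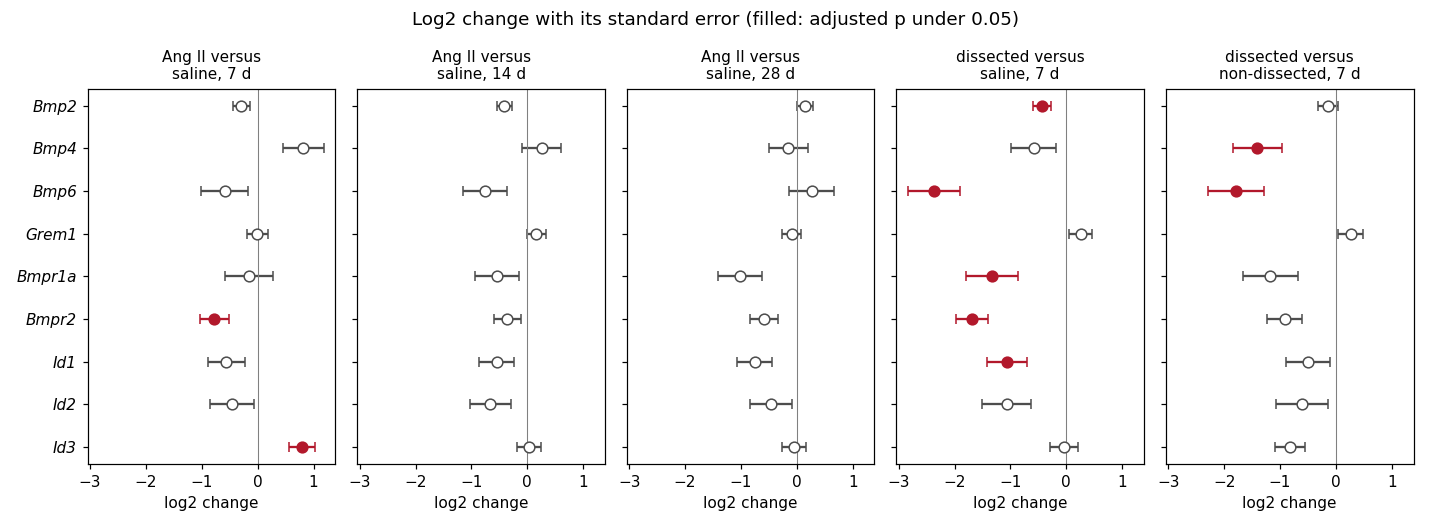
Log2 change with its standard error (horizontal axes) for the 9 genes in 5 comparisons, filled where the adjusted p is under 0.05. The changes of Bmp6, Bmpr1a, Bmpr2 and Id1 in dissected aortas against saline lie between -2.38 and -1.06, the Bmp2 point there stands for a bound of at least 1.27-fold, and at 14 and 28 days no symbol is filled.

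Of the 3 Id genes, 1 passed the test at 7 days in non-dissected aortas. Id3 had log2 ratios of 1.08, 1.59, 1.01 and 1.28 in non-dissected Ang II aortas, and saline aortas ranged from 0.16 to 0.89 with a median of 0.36. Every Ang II aorta was above every saline aorta. Id3 rose by 0.79 (SE 0.23, adjusted p = 0.0111, limma). The dissected aortas had 0.72, 0.28 and 0.24, inside the saline range, with a change of -0.04 (SE 0.25, adjusted p = 0.926, limma) against saline and -0.83 (SE 0.27, adjusted p = 0.0539, limma) against non-dissected aortas. Without the 4 arrays that stood apart, the difference from non-dissected aortas was past the threshold (adjusted p = 0.0388, limma).

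The rise of Id3 kept its call in 22 of 28 alternatives. It was lost within the first scan day (0.68, adjusted p = 0.0915, limma), within the second (0.75, adjusted p = 0.356, limma) and without Ang II replicate 2 (adjusted p = 0.0589, limma). It was also lost with the neighbouring tissue scores as covariates (0.58, adjusted p = 0.148, limma), where 6 of 8 chromaffin and sympathetic neuron markers were lower in the same Ang II aortas. Their mean log2 ratio per array was 0.08 to 2.62 in non-dissected 7-day Ang II aortas and 1.10 to 4.24 in saline aortas. In the same aortas 5 of 8 fibroblast markers rose (3.24 to 3.77 in Ang II and 0.94 to 2.90 in saline) and 7 of 8 monocyte and macrophage markers rose (2.79 to 3.5 in Ang II and 0.26 to 1.48 in saline). The part of these cells in the Id3 value was not tested. Over the 35 arrays Id3 followed the fibroblast score with r = 0.68 and the smooth muscle score with r = 0.69, as a description over arrays that share the common RNA. At 14 days Id3 averaged 0.59 ± 0.08 in Ang II (SD, n = 5) and 0.56 ± 0.50 in saline aortas (SD, n = 6), and at 28 days 0.48 ± 0.35 in Ang II (SD, n = 6) and 0.54 ± 0.51 in saline aortas (SD, n = 5). The test of whether the Ang II effect on Id3 differed among the 3 times gave an adjusted p of 0.176 (limma F test), so a difference among times was not shown.

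Id1 had log2 ratios of -1.06, -0.61 and -0.60 in dissected aortas, against a saline range of -0.48 to 1.15 with a median of 0.35. The dissected aortas were below all saline aortas. Id1 was lower by a log2 change of -1.06 (SE 0.36, adjusted p = 0.0218, limma). The call was lost within the second scan day (-0.75, adjusted p = 0.178, limma), without dissected replicate 1 (-0.91, adjusted p = 0.112, limma) and without saline replicate 3 (-0.89, adjusted p = 0.0526, limma). A second Id1 probe, which shares 50 bases with the one used, gave -0.72 (adjusted p = 0.116, limma over probes).

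In non-dissected Ang II aortas at 7 days Id1 was -0.31, -0.57, 0.33 and -0.50, overlapping the saline range. The changes were -0.57 (SE 0.33) at 7 days, -0.55 (SE 0.31) at 14 days and -0.75 (SE 0.31) at 28 days, none of which passed the test alone. Averaged over the times, Id1 fell by 0.62 (SE 0.18, adjusted p = 0.0113, limma), and the second probe gave -0.69 (adjusted p = 0.00445, limma over probes). That call was kept in 47 of 51 alternatives. Within the first scan day the mean change was -0.72 (adjusted p = 0.0741, limma) and within the second -0.40 (adjusted p = 0.391, limma). It was also lost with the neighbouring tissue scores as covariates (-0.47, adjusted p = 0.0661, limma), where the 14-day value turned to 0.05, and with scale normalization (adjusted p = 0.084, limma). Of 8 kidney tubule markers 4 were lower and 1 higher in the same mean comparison, and Id1 followed their score over the 35 arrays with r = 0.47. All 8 monocyte and macrophage markers were higher there, and their score had r = -0.57 with Id1. The smooth muscle score had r = 0.49 and the endothelial score 0.13. Within groups r was -0.12 for the macrophage, 0.48 for the kidney tubule, 0.44 for the smooth muscle and 0.53 for the endothelial score. The part of any of these cells in the Id1 value was not tested.

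The difference between the Id3 and Id1 log2 ratios on the same array was looked at after their values were seen, so it carries no test. It ranged from 0.68 to 2.16 in non-dissected 7-day Ang II aortas, from 0.84 to 1.78 in dissected aortas and from -0.26 to 0.65 in saline aortas at 7 days. The Ang II ranges at 7 days lay above the saline range. At 14 days it was 0.49 to 1.08 in Ang II and -0.66 to 0.94 in saline aortas, and at 28 days 0.00 to 1.09 in Ang II and -0.64 to 0.56 in saline aortas, with overlap at both times.

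**Figure D4:**
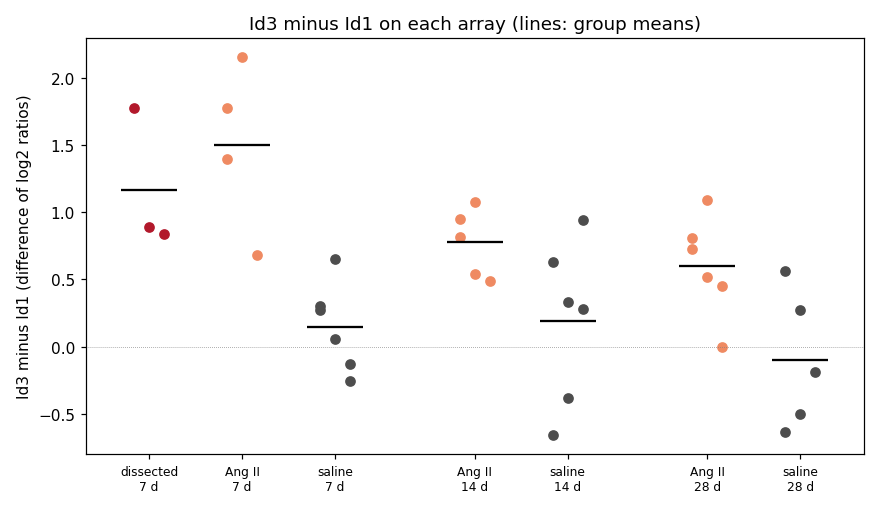
Id3 minus Id1, as the difference of their log2 ratios (vertical axis), on each of 35 arrays in 7 groups, with lines for the group means. Group means were 1.17 in dissected and 1.5 in non-dissected 7-day Ang II aortas against 0.15 in saline aortas at 7 days; the pair was chosen after its values were seen.

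Id2 had 2 probes that disagreed in sign. The brighter one, at chr12:25683119-25683178, gave -1.17, -1.85 and -1.33 in dissected aortas, and saline aortas ranged from -1.29 to 0.33 with a median of -0.39. Its change was -1.07 (SE 0.43, adjusted p = 0.0531, limma) in dissected and -0.46 (SE 0.40, adjusted p = 0.416, limma) in non-dissected 7-day aortas. With the replicate number as a block, the change in dissected aortas was -1.16 (SE 0.46, adjusted p = 0.0493, limma), past the threshold. Without the 4 arrays that stood apart it was -1.25 (adjusted p = 0.0141, limma), and the mean over the 3 times was -0.71 (adjusted p = 0.0163, limma). The probe printed above gave 0.23 (SE 0.33, adjusted p = 0.621, limma over probes) in dissected and 0.42 (SE 0.30, adjusted p = 0.315, limma over probes) in non-dissected aortas. Both probes were well above background on all 35 arrays. No direction of Id2 is given here.

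The median log2 change over the 9 members was -1.06 in dissected aortas against saline, where that over all genes was -0.04. Against non-dissected aortas it was -0.82, and over all genes 0. In the Ang II groups other than the dissected one, the members' median against saline was -0.29 at 7 days, -0.41 at 14 days and -0.15 at 28 days. The all-gene medians were 0, 0 and 0.04. Groups did not overlap for 4 of 9 members in dissected against saline aortas, all lower, where 17.3% of all genes lay wholly higher and 16.2% wholly lower. For dissected against non-dissected aortas this held for 7 of 9 members, again all lower, where 11.8% of all genes lay wholly higher and 15% wholly lower. In non-dissected 7-day aortas 1 member was wholly higher and 1 wholly lower, where 12.2% and 8.32% of all genes were. At 14 days 0 of 9 members were separate (1.44% of all genes higher, 1.8% lower), and at 28 days 0 of 9 (1.06% higher, 0.316% lower). Comparisons that share the saline or dissected arrays are not independent of each other. The members were chosen with earlier results of these data known, so the shares are no test of the set. Against non-dissected aortas only Bmp4 and Bmp6 were called, and neither kept its call with scan day as a block. These medians and counts use the brightest probe of each gene, so Id2 enters through its brighter probe although its 2 probes disagreed in sign. The other Id2 probe gave 0.23 in dissected against saline aortas and -0.19 against non-dissected ones. With that probe, or with the RefSeq-based Bmpr2 probe (-0.19 against saline), the members' median against saline would be less negative.

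No member passed the test of an Ang II effect that differs among the 3 times, where 1.48% of all genes did. The lowest adjusted p were those of Id3 at 0.176 and Bmp2 at 0.18 (limma F test). Saline aortas across 7, 14 and 28 days gave 0 of 9 members, where 0.466% of all genes were called. The lowest adjusted p there was that of Bmp2 at 0.261 (limma F test).

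The genes whose log2 ratios followed a member most closely over the 35 arrays are given as a description, since all arrays share the common RNA and the normalization. For Bmp6 they were Tmem204 (Pearson r = 0.901), Tek (0.857) and Zfp979 (0.848), where Tek encodes the angiopoietin receptor of endothelial cells. Tek was also among the 3 for Bmp2, with r = 0.80. For Bmp4 they were Mir100hg (0.87), Edn1 (0.84) and Angptl7 (0.839), of which Edn1 encodes endothelin. For Bmpr2 they were Mob4 (0.944), Utrn (0.924) and Sun1 (0.917), for Id3 Slc2a10 (0.869), Hip1 (0.85) and Rasl11b (0.85), and for Id1 Cobll1 (0.868), Arhgef12 (0.864) and Rbpms2 (0.845). The score of the 10 endothelial markers, Tek among them, had r = 0.42 with Bmp6 (0.77 within groups) and 0.45 with Bmp2 (0.64 within groups). With Bmp4 it had -0.24 (-0.12 within groups), where the smooth muscle score had 0.61 and the fibroblast score 0.58. The median change of the endothelial markers in dissected against saline aortas was 0.79.

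Other genes of the pathway were taken from a list of 55, of which 47 were tested. In non-dissected Ang II aortas at 7 days 6 rose, Gdf6 among them, and 2 fell, 17% of the list against 27.2% of all genes. The largest were secreted factors: Fstl1, a follistatin-like glycoprotein, rose by 3.35 (SE 0.55, adjusted p = 5.43e-05, limma), and Sostdc1, a BMP and Wnt antagonist, fell by 2.43 (SE 0.73, adjusted p = 0.0142, limma). Gdf6, a BMP-family ligand, had log2 ratios of 2.23, 2.46, 2.90 and 1.49 in non-dissected Ang II aortas and -0.42 to 0.22 in saline aortas. It was not well above background on any saline array at 7 days, so it was at least 4.05-fold higher. In the dissected aortas Gdf6 had -0.26, 0.03 and -0.06, again not above background, at least 3.73-fold lower than in non-dissected ones. Gdf6 was well above background on 4 of 5 Ang II arrays at 14 days and 3 of 6 at 28 days. On saline arrays this was 1 of 6 and 0 of 5. Gdf6 entered the test through the Ang II groups where it was high, so its p-values are left out. The counts of called genes of this list still include it, so those shares are no support for a change of the list.

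Bmper, which binds BMPs outside the cell, rose at 7 days by 2.11 (SE 0.29, adjusted p = 6.17e-06, limma) and at 14 days by 1.29 (SE 0.28, adjusted p = 0.013, limma). Fst, follistatin, an activin and BMP binder, rose by 1.58 (SE 0.26) at 7 days, 1.15 (SE 0.24) at 14 days and 1.16 (SE 0.24) at 28 days, with adjusted p of 6.75e-05, 0.013 and 0.0145 from limma. It was the single gene of the list called at 28 days, and with only the compared groups in the fit 0 of 18671 genes were called at that time (limma). Smad1, a BMP-activated Smad, rose by 0.93, and Eng, the endothelial co-receptor endoglin, rose by 0.81, while the co-receptor gene Rgmb fell by 0.97 at 7 days.

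In dissected aortas against saline, 6 of 47 rose and 8 fell, 29.8% of the list against 36.5% of all genes. Smad1 rose by 1.51 (SE 0.25, adjusted p = 1.78e-05, limma). Hey2, a Notch and BMP target, fell by 2.52 (SE 0.64, adjusted p = 0.00249, limma), though it was well above background on 1 of 3 dissected arrays against 6 of 6 saline arrays, so the size is uncertain. The extracellular modulators Sost, above background on 2 of 3 dissected arrays, and Crim1 fell by 2.25 and 1.57. Tcf12, which encodes an E protein that Id proteins bind, fell by 1.29 (SE 0.22, adjusted p = 2.96e-05, limma), and the ubiquitin ligase gene Smurf2 fell by 1.17. Against non-dissected aortas, 8 of 47 fell, Gdf6 among them, and 0 rose, 17% of the list. Of all genes 8% were called in this comparison, and 4.9% were called lower. Also among the 8 were the chordin-like antagonist gene Chrdl1 at -2.59, Fstl1 at -2.05 and the receptors Acvrl1 at -1.24 and Acvr1 at -0.82. The shared mediator Smad4 was at -0.81 (SE 0.17, adjusted p = 0.00289, limma). All 3 dissected arrays were scanned on the second scan day, and 3 of the 4 non-dissected ones on the first. With scan day as a block, 856 genes were called in this comparison, against 1494 without it (limma). The values of the list genes under that block are not given here.

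**Figure D5:**
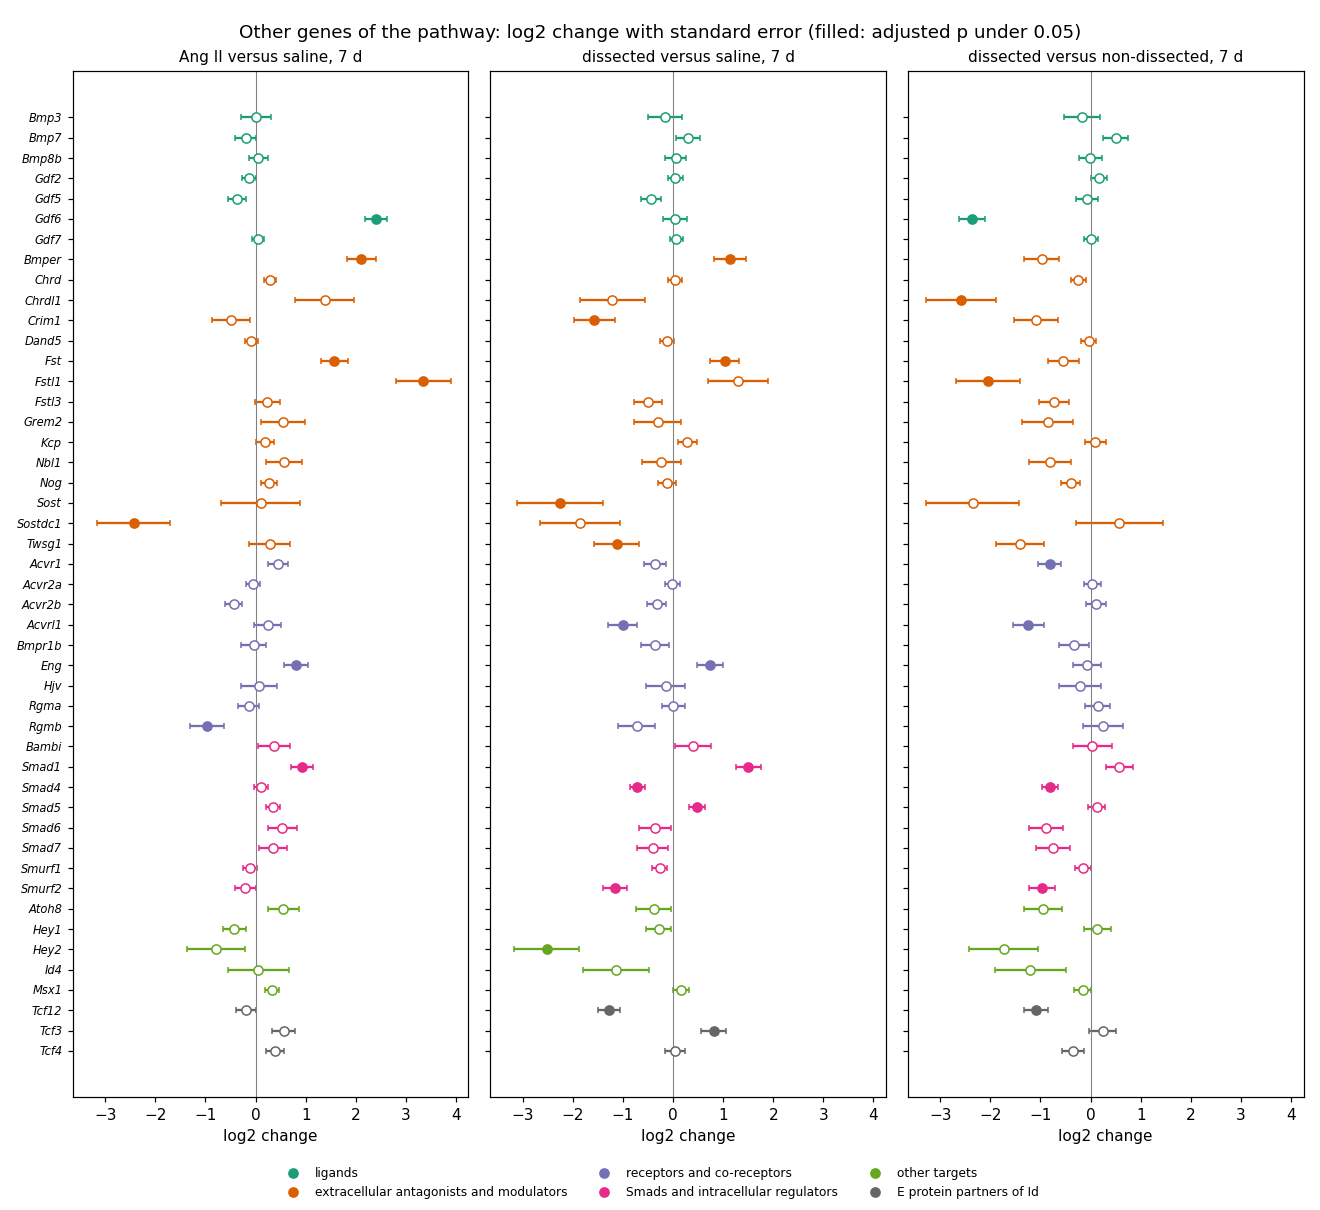
Log2 change with its standard error (horizontal axes) for 47 other genes of the pathway, coloured by role, in 3 comparisons at 7 days, filled where the adjusted p is under 0.05. Fstl1 at 3.35 and Gdf6 at 2.41 are the highest in non-dissected Ang II against saline, and Gdf6 is near 0 in dissected against saline aortas. Gdf6 was not well above background on saline or dissected arrays at 7 days, so its points stand for bounds or for values at background.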

How the data were processed

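Per the file headers, the authors scanned 35 two-colour Agilent arrays and extracted spot intensity values (build mm8 positions); the submitters' processing notes name the extraction software as version 9.5.3.1. The authors' log2 table (aorta over common RNA) and the log10 ratios of the deposited scanner files served as an alternative and a check of direction. Per the labels' protocols, aorta RNA was amplified with Cy5, the common RNA reverse transcribed with Cy3, and 1 aorta went on each array, so p-values measure the spread between aortas.

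Mean intensities were corrected with normexp (offset 50) and loess within arrays in limma 3.58.1 (R 4.3.3). Control and non-uniform spots were left out, spots of a probe averaged, and the brightest probe per gene kept. Folds of dim probes are understated by the offset. Bounds ("at least") use the array's lowest signal above background. All 35 arrays entered 1 model with 28 residual degrees of freedom. Simulated data with known changes were used to check the fit. The members and gene lists were chosen with earlier results of these data known. The rule named all members, called list genes (up to 8 per comparison) and the 3 most alike genes. Same-numbered arrays correlated at -0.40 to 0.60, and every pair was above 0.1 only in dissected against saline aortas (0.13 to 0.50, 3 pairs), where the pairing comes from the data and not the labels; the paired value is given where it changed a call. A total of 17 alternatives were run, and 2 were added after the data were seen. The counts of alternatives that kept a member's call also include fits with 1 array left out. They include settings that cannot move a log2 change, such as Aquantile normalization and, for a gene with 1 probe, the mean of its probes.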

Additional observations from a re-analysis of the deposited data

Results flagged for a closer look

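The values of each member in each group of 4 to 6 arrays were examined, 54 sets in all. In 2 of them 1 array stood far from the rest of its group, and chance gives about 1 in 20. Bmpr2 in saline 7-day replicate 2 was 1.64, while the other 5 saline aortas lay between 1.07 and 1.26. Id1 in Ang II 28-day replicate 5 was -1.06, while the other 5 lay between -0.06 and 0.15. The response to 7 days of Ang II differed between dissected and non-dissected aortas by a test of the difference itself for Bmp4, with a log2 change of -1.40 (adjusted p = 0.0434, limma), and for Bmp6, with -1.78 (adjusted p = 0.0245, limma). All 3 dissected aortas were below all 4 non-dissected ones for both genes, and neither call was kept with scan day as a block, with the neighbouring tissue scores as covariates (Bmp4 -0.88, adjusted p = 0.293; Bmp6 -1.73, adjusted p = 0.0913; limma) or with scale normalization (adjusted p = 0.384 and 0.273, limma). Fibroblast markers had a median change of -1.16 in the same comparison, and their part was not tested.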

How the results depend on the processing

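With the replicate number as a block (replicate block), the changes in dissected against saline aortas were -2.51 for Bmp6 and -1.84 for Bmpr2, no call of a member was lost, and Id2 was added at -1.16 (adjusted p = 0.0493, limma). Against non-dissected aortas it added Bmpr2 at -1.015 (adjusted p = 0.0315, limma) and Id3 at -0.852 (adjusted p = 0.0424, limma). For the mean of 3 times it added Bmpr1a at -0.625 (adjusted p = 0.0266, limma). Same-numbered arrays in dissected against saline aortas correlated at 0.13 to 0.50 over 3 pairs, but the labels give them no shared animal or day. Aquantile normalization leaves log ratios as they are, so its counts equal those reported. Median centring without loess shifted the median of all genes by -0.36 in dissected against saline aortas, so changes under it are read against that shift. The causes of these moves were not tested. The removal of 4 arrays and the use of single other probes were chosen after seeing the data. Signal over background limits Bmp2, the second Bmp6 and Bmpr1a probes and the middle Bmpr2 probe, which give bounds only where a group lies below background.

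The counts of genes called were 5078 at 7 days, 436 at 14 days, 170 at 28 days, 5074 for the mean of 3 times, 6815 in dissected against saline and 1494 in dissected against non-dissected aortas, with 276 for a difference among times and 87 for saline across times. The settings below moved a count by over 1.5 times. With array weights, the genes called were 2459 for a difference among times, 980 for 14 days, 7929 for 7 days, 5217 for dissected against non-dissected and 250 for saline across times, and the members called were 1 for a difference among times, 1 for 14 days, 4 for 7 days, 5 for the mean of 3 times and 5 for dissected against non-dissected. With the deposited series table, the genes called were 427 for 28 days, 2788 for dissected against non-dissected and 0 for saline across times, and the members called were 5 for the mean of 3 times. With the mean of all probes of a gene, the members called were 1 for 7 days. With median centring without loess, the genes called were 24 for a difference among times, 124 for 14 days, 67 for 28 days, 1564 for 7 days, 2202 for the mean of 3 times and 0 for saline across times, and the members called were 0 for 7 days, 4 for the mean of 3 times and 5 for dissected against non-dissected. With the neighbouring tissue scores as covariates, the genes called were 7 for a difference among times, 175 for 14 days, 99 for 28 days, 1751 for 7 days, 419 for dissected against non-dissected and 2 for saline across times, and the members called were 0 for 7 days, 1 for the mean of 3 times and 0 for dissected against non-dissected. With no background subtraction, the genes called were 102 for a difference among times and 0 for saline across times, and the members called were 5 for the mean of 3 times. With no filter on dim probes, the genes called were 0 for saline across times, and the members called were 1 for dissected against non-dissected. With only the compared groups in the fit, the genes called were 119 for 14 days, 0 for 28 days and 2294 for dissected against non-dissected, and the members called were 5 for dissected against non-dissected. With the replicate block, the genes called were 151 for a difference among times and 0 for saline across times, and the members called were 4 for dissected against non-dissected. With scale normalization between arrays, the genes called were 14 for a difference among times, 6 for 14 days, 4061 for 28 days, 970 for 7 days, 2220 for dissected against saline, 95 for dissected against non-dissected and 2497 for saline across times, and the members called were 4 for 28 days, 0 for 7 days, 4 for the mean of 3 times, 2 for dissected against saline, 0 for dissected against non-dissected and 4 for saline across times. With scan day as a block, the genes called were 856 for dissected against non-dissected and 178 for saline across times, and the members called were 0 for dissected against non-dissected. With the scanner software's processed signals, the genes called were 355 for 28 days, 2704 for dissected against non-dissected and 0 for saline across times, and the members called were 5 for the mean of 3 times. With a stricter filter on the number of arrays above background, the genes called were 13 for saline across times. Within scan day 1, the genes called were 19 for 14 days, 11 for 28 days, 2722 for 7 days and 2957 for the mean of 3 times, and the members called were 1 for 7 days and 0 for the mean of 3 times. Within scan day 2, the genes called were 1 for 14 days, 1472 for 28 days, 189 for 7 days, 1313 for the mean of 3 times and 4 for dissected against non-dissected, and the members called were 2 for 28 days, 0 for 7 days, 1 for the mean of 3 times, 2 for dissected against saline and 0 for dissected against non-dissected. Without the 4 arrays that stand apart, the genes called were 172 for a difference among times, 66 for 14 days, 7 for 28 days and 0 for saline across times, and the members called were 4 for 7 days and 6 for the mean of 3 times.

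Log2 changes that took the other sign were those of results without a call, except Bmpr2 at 7 days. Bmp2 at 28 days was -0.40 with the deposited series table, -0.16 with no background subtraction, -0.050 with scale normalization between arrays, -0.42 with the scanner software's processed signals and -0.029 without the 4 arrays that stand apart. Bmp2 in dissected against non-dissected was 0.13 with median centring without loess. Bmp4 at 14 days was -0.070 with median centring without loess. Bmp4 at 28 days was 0.094 with array weights, 0.044 with the neighbouring tissue scores as covariates, 0.24 with scale normalization between arrays and 0.80 within scan day 1. Bmp4 in the mean of 3 times was -0.053 within scan day 2. Bmp6 at 28 days was -0.22 with array weights, -0.55 with the deposited series table, -0.041 with the neighbouring tissue scores as covariates, -0.41 with no background subtraction, -1.46 with scale normalization between arrays, -0.58 with the scanner software's processed signals and -0.51 without the 4 arrays that stand apart. Bmpr1a at 14 days was 0.21 with the neighbouring tissue scores as covariates. Bmpr1a at 7 days was 0.18 within scan day 2. Bmpr2 at 28 days was 0.32 within scan day 1. Bmpr2 at 7 days was 0.088 with probe A_51_P419389. Grem1 at 14 days was -0.20 with median centring without loess. Grem1 at 28 days was 0.29 with the deposited series table, 0.19 with no background subtraction, 2.15 with scale normalization between arrays, 0.26 with the scanner software's processed signals and 0.34 within scan day 2. Grem1 at 7 days was 0.037 with the deposited series table, 0.092 with the neighbouring tissue scores as covariates, 0.042 with no background subtraction, 0.052 with the replicate block, 0.26 with scale normalization between arrays, 0.045 with the scanner software's processed signals, 0.21 within scan day 2 and 0.022 without the 4 arrays that stand apart. Grem1 in the mean of 3 times was -0.15 with median centring without loess and -0.12 within scan day 1. Grem1 in dissected against saline was -0.51 with median centring without loess. Grem1 in dissected against non-dissected was -0.33 with median centring without loess. Id1 at 14 days was 0.050 with the neighbouring tissue scores as covariates. Id1 at 7 days was 0.34 within scan day 2. Id2 at 28 days was 0.10 with probe A_51_P219074, 0.89 with scale normalization between arrays and 0.52 within scan day 1. Id2 at 7 days was 0.42 with probe A_51_P219074 and 0.31 within scan day 2. Id2 in the mean of 3 times was 0.13 with probe A_51_P219074 and 0.087 with scale normalization between arrays. Id2 in dissected against saline was 0.23 with probe A_51_P219074. Id3 at 14 days was -0.085 with array weights, -0.33 with median centring without loess, -0.037 with the replicate block, -0.017 with scale normalization between arrays and -0.18 within scan day 2. Id3 at 28 days was 0.015 with the replicate block and 0.43 within scan day 1. Id3 in dissected against saline was 0.15 with array weights and 0.15 within scan day 2.

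Leaving out 1 array at a time gave 3181 to 5544 genes and 0 to 2 members called at 7 days, 68 to 689 genes at 14 days, 69 to 411 genes and 0 to 1 member at 28 days, 2 to 4 members for the mean of 3 times, 2 to 6 members in dissected against saline aortas, and 706 to 1435 genes and 0 to 2 members in dissected against non-dissected aortas. The 0 members at 7 days came without Ang II replicate 2, the 2 members in dissected against saline aortas without dissected replicate 1, and the 1 member at 28 days without Ang II replicate 3. Signs turned within these ranges of log2 change: Bmp4 at 28 days -0.355 to 0.072, Bmp6 at 28 days -0.03 to 0.515, Bmpr1a at 7 days -0.294 to 0.036, Grem1 at 7 days -0.081 to 0.048, Grem1 for the mean of 3 times -0.034 to 0.052, Id3 at 14 days -0.066 to 0.202, Id3 at 28 days -0.228 to 0.114 and Id3 in dissected against saline aortas -0.191 to 0.051.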
